A study of Mus musculus with 19 samples.

Results

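The genes described here belong to families of xenobiotic-metabolizing enzymes of the nose. These are cytochrome P450 families Cyp1 to Cyp4, flavin-containing monooxygenases (Fmo), UDP-glucuronosyltransferases (Ugt1 and Ugt2) and sulfotransferases (Sult). Glutathione transferases of the Gsta, Gstm, Gsto, Gstp and Gstt classes are included too. The genes were chosen by symbol and by level from the authors' normalized table. Each carries such a family name and has a mean of 1 or more in at least 1 sorted group. Of 152 rows with such a symbol, 97 met the level, out of 26221 rows in all. Among these members, Gstp-ps, Cyp4b1-ps2 and Cyp4f41-ps are annotated as pseudogenes. Cyp2c23 (1.04), Ugt1a1 (1.06) and Cyp4f18 (1.08) lay just inside the level by their highest group mean, and Sult1c2 (0.994), Cyp4a30b (0.952) and Cyp4x1 (0.938) lay just outside it. A total of 53 members reached the level in all 3 groups, 16 in EpCAM alone, 16 in FSChi and EpCAM, 5 in FSChi alone, 3 in FSClow alone and 4 in FSClow and FSChi.

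RNA was sequenced from 19 libraries of sorted nasal epithelial cells of naive mice on a B6.Cg background that carry the Tg(RP23-268L19-EGFP)2Mik transgene, in which a bacterial artificial chromosome drives enhanced green fluorescent protein (eGFP) from Chat regulatory sequence. All groups carry it, and no age is given. CD45- EpCAM+ eGFP+ cells, which the submitters call brush cells, were gated by forward scatter as FSClow (9 libraries, low) or FSChi (5 libraries, high). CD45- EpCAM+ eGFP- cells (EpCAM, 5 libraries) are the remaining epithelium, a mixture of cell types. The labels do not tell whether each library is its own mouse. Each p-value therefore weighs a difference against library-to-library spread, which may be technical.

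Xenobiotic metabolism runs in stages. Cytochrome P450 and Fmo enzymes oxidize inhaled or ingested compounds, drawing electrons from NADPH (for most P450 enzymes through the reductase Por), and Ugt, Sult and glutathione transferases then attach glucuronic acid, sulfate or glutathione, after which transporters export the products. The olfactory mucosa is rich in such enzymes, above all in sustentacular cells and Bowman's glands, where Cyp2a5, Cyp2g1 and Ugt2a1 are known from rodents and have been linked to odorant clearance and to local activation of toxicants.

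Cyp2a5 and Cyp2a4 lie in 1 gene cluster on chromosome 7 and were both counted among the most abundant members, although the deposited files disagree on Cyp2a4, so their sequences are shown to make visible how little separates them. Their coding sequences differ at 23 of 1482 bases (98.45% identical), with an identical stretch of up to 216 bases. In the stretch from coding base 570 to 669, which holds the most differences of any 100 bases, 5 bases differ (G603T, C607A, T625C, C655G and C669T, with the Cyp2a5 base first and positions counted from the start codon, and capitals marking them).
Cyp2a5: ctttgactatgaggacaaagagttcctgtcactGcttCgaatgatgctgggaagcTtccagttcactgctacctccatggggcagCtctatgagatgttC
Cyp2a4: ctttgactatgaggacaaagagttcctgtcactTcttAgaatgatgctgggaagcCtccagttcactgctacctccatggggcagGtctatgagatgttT

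The 250 bases before the annotated start are shown for these genes and for Cyp2f2 and Ugt2a1, the leading P450 gene and the olfactory glucuronosyltransferase (RefSeq, GRCm38.p6, written 5′ to 3′ on the gene's strand, with capitals marking motif matches).
Cyp2a5, chr7:26835089-26835338, plus strand: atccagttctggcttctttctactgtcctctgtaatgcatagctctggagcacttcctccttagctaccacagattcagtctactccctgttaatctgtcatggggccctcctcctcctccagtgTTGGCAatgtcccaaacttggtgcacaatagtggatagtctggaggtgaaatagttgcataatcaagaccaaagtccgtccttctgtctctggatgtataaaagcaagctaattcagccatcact
Cyp2a4, chr7:26306942-26307191, plus strand: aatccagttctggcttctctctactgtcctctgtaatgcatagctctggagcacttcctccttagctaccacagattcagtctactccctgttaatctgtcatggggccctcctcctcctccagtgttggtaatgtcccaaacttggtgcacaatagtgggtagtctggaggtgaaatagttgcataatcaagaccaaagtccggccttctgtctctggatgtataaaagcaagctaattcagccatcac
Cyp2f2, chr7:27119705-27119954, plus strand: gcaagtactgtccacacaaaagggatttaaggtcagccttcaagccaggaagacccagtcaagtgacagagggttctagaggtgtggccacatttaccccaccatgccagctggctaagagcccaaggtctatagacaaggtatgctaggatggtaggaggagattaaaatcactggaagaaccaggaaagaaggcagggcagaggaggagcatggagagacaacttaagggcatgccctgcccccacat
Ugt2a1, chr5:87490872-87491121, minus strand: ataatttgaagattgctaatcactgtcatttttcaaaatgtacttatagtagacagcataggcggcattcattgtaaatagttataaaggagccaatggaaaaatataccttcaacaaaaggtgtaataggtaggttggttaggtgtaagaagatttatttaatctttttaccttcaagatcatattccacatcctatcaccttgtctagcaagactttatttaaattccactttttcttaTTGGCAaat

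The Cyp2a5 and Cyp2a4 promoters differed at 4 of 249 compared bases (98.39% identical), by T18C, C130T, A160G and T204G counted from the first base shown for Cyp2a5. The motif TTGGCA, a binding core of nuclear factor I, began at base 126 of the Cyp2a5 stretch and at base 242 of the Ugt2a1 stretch. No such match lay in the Cyp2a4 or Cyp2f2 stretch, and C130T falls within the motif. Both strands were searched for 4 motifs in the same window of all 32851 RefSeq promoters and of 94 promoters of 81 members, with overlaps between motifs allowed. TTGGCA was present in 25.5% of member promoters and 12.3% of all promoters. The aryl hydrocarbon receptor core GCGTG was present in 23.4% of member promoters and 28.2% of all, the antioxidant response element TGACNNNGC in 4.26% and 10.2%, and the EBF core CCCNNGGG in 5.32% and 11.8%. These are matches of letters and show no binding.

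The columns of the count table do not all match the single-library file of the same name. By correlation over genes, the FSChi 3 and FSChi 4 columns resembled the files of FSChi 4 and FSChi 5, the FSChi 5 column resembled no file as closely as the other columns did, and the EpCAM 1 and EpCAM 2 columns each resembled the other's file. For each column the most similar file was of its own group, but the source of the FSChi 5 column was not identified (best correlation 0.921). The FSChi 3 file holds 6807 expected counts.

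The members took 0.0891% to 0.133% of all counts in FSClow libraries, 0.148% to 0.765% in FSChi libraries and 1.04% to 1.58% in EpCAM libraries. In CPM, a gene's count scaled to the library's total and adjusted with TMM factors, the summed level was 1107 ± 268 in FSClow (SD, n = 9), 4168 ± 2375 in FSChi (SD, n = 5) and 12880 ± 2876 in EpCAM (SD, n = 5). The FSClow libraries all lay below the FSChi libraries, and these all lay below the EpCAM libraries. The mean order FSClow, FSChi, EpCAM from low to high held for 66 of 97 members. Group means of the same libraries served to choose the members, and 16 reached the level in EpCAM alone and 16 in FSChi and EpCAM. The order is therefore partly built into the choice, and the share of all genes with this order was not computed. In a bulk sample, fewer cells of a type and less RNA per cell cannot be told apart.

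**Figure D1:**
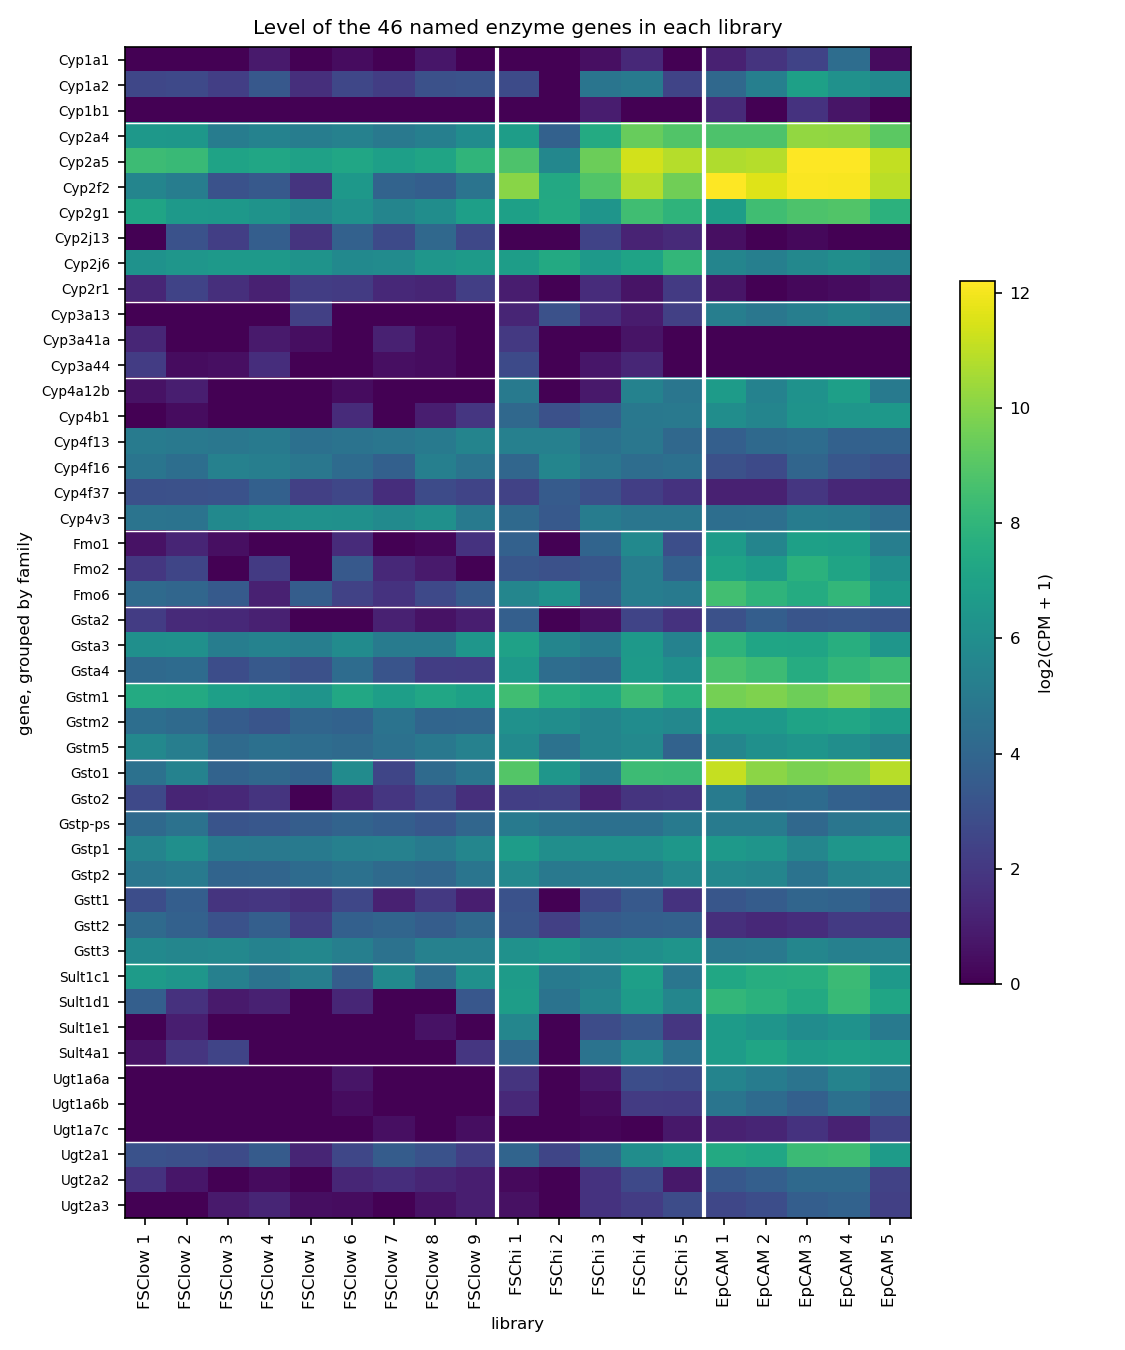
Heat map of the 46 named genes (rows, grouped by family) in the 19 libraries (columns, FSClow then FSChi then EpCAM), coloured by log2(CPM + 1). Most rows are brightest in EpCAM, while Cyp2j6, Cyp4f13, Cyp4f16 and Gstt2 are brighter in both eGFP+ groups.

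A filter on low counts passed 56 of the 97 members, and the other 41 were not tested. A member that passed only through the group where it is high had to differ, so the counts here describe the members tested. Near-identical pairs such as Cyp2a4 and Cyp2a5, Gstp1 and Gstp2, or Cyp4f16 and Cyp4f37 count as separate members, though their reads may not be separable. The pseudogene Gstp-ps is among the tested members. In FSClow against EpCAM, 44 of the 56 were called lower and 8 higher at an adjusted p under 0.05 (edgeR quasi-likelihood test, Benjamini-Hochberg over all 13340 genes tested), where 23.1% of all genes were called lower and 22.0% higher. With relative log expression scaling 2244 genes were called higher and 3627 lower, against 2931 and 3086 here, the median of all genes moved to -0.14, and the members' counts stayed at 8 and 44. The median log2 fold change was -2.92 over the tested members and 0.05 over all genes. In FSChi against EpCAM, 25 were called lower and 7 higher, where 12.2% and 13.5% of all genes were called lower and higher, and the medians were -1.47 and -0.02. In FSChi against FSClow, 35 were called higher and 1 lower, where 15.5% and 9.30% of all genes were called, and the medians were 1.85 and -0.01. These 3 comparisons share libraries. Across them, 18 members were lower in both eGFP+ groups than in EpCAM and higher in FSChi than in FSClow. A further 15 had the same calls except for FSChi against EpCAM, where no difference was called. The share of all genes with these joint calls was not computed. Among the 53 members that reached the selection level in all 3 groups, 48 were tested, and in FSClow against EpCAM 37 of them were lower and 7 higher.

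**Figure D2:**
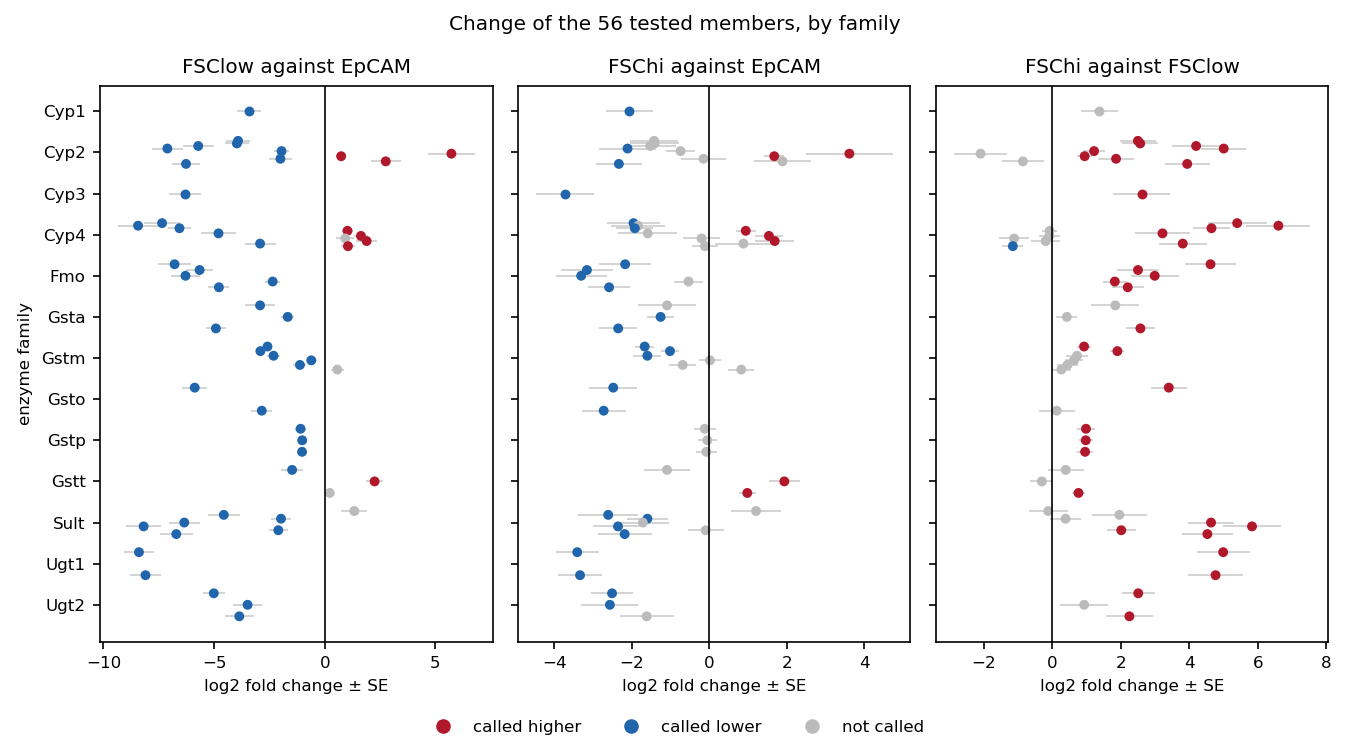
Log2 fold change of each of the 56 tested members (points, with SE bars) by enzyme family (rows) in FSClow against EpCAM, FSChi against EpCAM and FSChi against FSClow, with separate horizontal scales. In FSClow against EpCAM every tested Fmo, Gsta, Gsto, Gstp, Ugt1 and Ugt2 gene lies left of 0. Cyp2, Cyp4, Gstm, Gstt and Sult hold members on both sides.

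The P450 family Cyp2 made up 7914 ± 2758 CPM of the members' sum in EpCAM libraries (SD, n = 5). Of its 28 members 10 were tested, and 7 were lower and 3 higher in FSClow than in EpCAM (all genes 23.1% and 22.0%). Cyp2f2 (chr7:27119955-27133660, mm10), which oxidizes naphthalene and other volatile compounds in airway epithelium, was read at 2.51 CPM in the lowest FSClow library, 13.7 at the median and 89.2 in the highest. Its FSChi libraries stood at 1051, 162, 467, 1840 and 749 CPM, against 4638, 3101, 4425, 4283 and 1981 CPM in the EpCAM libraries. None of the 3 groups overlapped for this gene. On the log2 scale Cyp2f2 fell by 7.11 ± 0.70 in FSClow against EpCAM (SE, edgeR adjusted p = 8.6e-08). It was 5.0 ± 0.65 higher on the log2 scale in FSChi than in FSClow (adjusted p = 1.34e-05). In FSChi against EpCAM it fell by 2.11 ± 0.73 (adjusted p = 0.0391), a call lost when any of 8 libraries was left out (adjusted p = 0.0538 to 0.0819).

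Cyp2a5 (chr7:26835339-26843264), the coumarin and nicotine hydroxylase of mouse nose and liver, had 118 CPM in the lowest FSClow library, 149 at the median and 334 in the highest. The FSChi libraries held 443, 49.0, 706, 2598 and 1824 CPM, against 1722, 1806, 4707, 4561 and 2140 CPM in EpCAM. FSChi spanned the range from below every FSClow library to above 3 of the EpCAM libraries. Cyp2a5 was lower in FSClow than in EpCAM (log2 fold change -3.97 ± 0.55, SE, edgeR adjusted p = 5.07e-06) and higher in FSChi than in FSClow (2.56 ± 0.53, adjusted p = 0.00133). Between FSChi and EpCAM the difference was not called (-1.41 ± 0.63, adjusted p = 0.108). With the replicate number as a block, Cyp2a5 was at 1.90 in FSChi against FSClow (edgeR adjusted p = 0.211). A further fit used only the libraries whose count column matched their own file. Of FSChi it kept replicates 1 and 2, which had the lowest Cyp2a5 levels of that group (443 and 49.0 CPM). There Cyp2a5 was at 0.44 in FSChi against FSClow (adjusted p = 0.647) and at -3.96 in FSChi against EpCAM (adjusted p = 0.00227).

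Cyp2g1 (chr7:26808927-26821197), a P450 found almost only in olfactory mucosa and active on steroids, behaved less steeply. Its FSClow libraries ran from 46.7 CPM over a median of 76.2 to 138. The FSChi libraries had 122.5, 168, 80.2, 348 and 241 CPM, against 110.5, 346, 443, 477 and 227 CPM in EpCAM. All groups overlapped. The log2 fold change was -1.96 ± 0.33 in FSClow against EpCAM (SE, edgeR adjusted p = 2.79e-05) and 1.22 ± 0.33 in FSChi against FSClow (adjusted p = 0.00871; 0.0561 without FSChi replicate 4). In FSChi against EpCAM it was -0.74 ± 0.38 (adjusted p = 0.165). With the replicate number as a block, Cyp2g1 was at 0.99 in FSChi against FSClow (edgeR adjusted p = 0.136).

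The proportions among these P450 genes differed between libraries. The ratio of Cyp2f2 to Cyp2a5 counts lay between 0.0201 and 0.60 in FSClow, between 0.41 and 3.31 in FSChi and between 0.926 and 2.69 in EpCAM. The ratio of Cyp2g1 to Cyp2a5 was 0.311 to 0.671 in FSClow, 0.114 to 3.43 in FSChi and 0.0642 to 0.191 in EpCAM. The value of 3.43 came from FSChi replicate 2, the smallest library of the series at 1348428 counts, whose Cyp2a5 level was the lowest of all 19 libraries. Together Cyp2f2 and Cyp2a5 made up 14.7% to 24.6% of member counts in FSClow, 13.2% to 58.0% in FSChi and 43.2% to 59.5% in EpCAM.

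**Figure D3:**
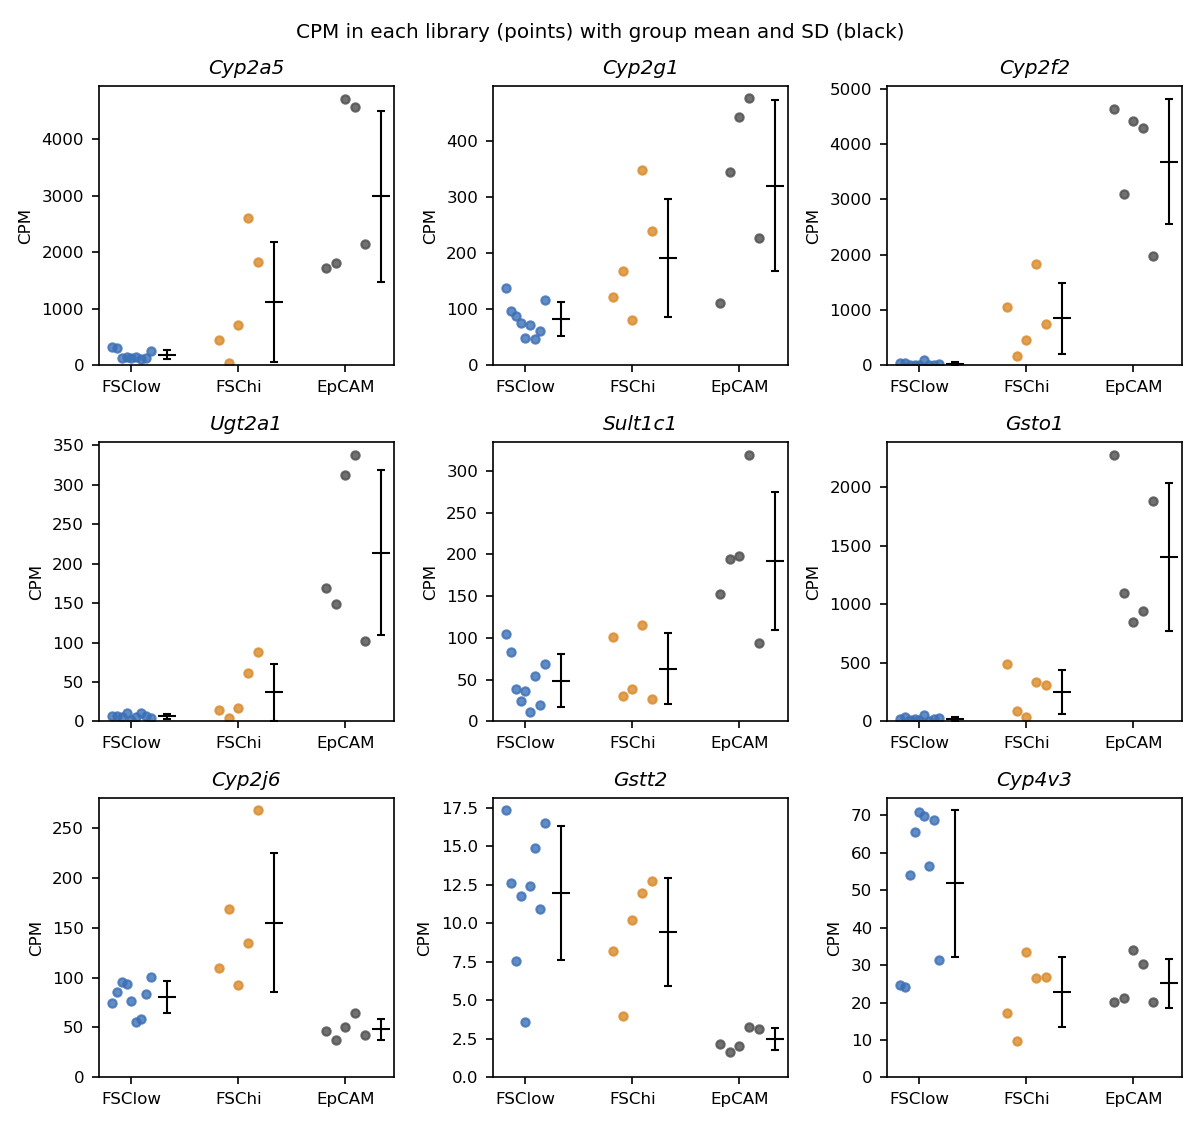
CPM of 9 members in each library (points, each panel with its own axis from 0), with group mean and SD in black, for FSClow, FSChi and EpCAM from left to right. Cyp2f2 is separate in all 3 groups, Cyp2a5 in FSChi spans 49.0 to 2598 CPM, and Gstt2 is higher in both eGFP+ groups.

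Outside Cyp2, the only tested Cyp1 gene was Cyp1a2, an oxidase of aromatic amines and caffeine induced through the aryl hydrocarbon receptor. It averaged 5.45 ± 2.21 CPM in FSClow, 13.52 ± 14.02 CPM in FSChi and 60.0 ± 39.6 CPM in EpCAM. It fell by 3.43 ± 0.53 in FSClow against EpCAM on the log2 scale (adjusted p = 1.08e-05) and by 2.06 ± 0.60 in FSChi against EpCAM (adjusted p = 0.0143). Cyp1a1 (highest group mean 5.58 CPM) and Cyp1b1 (0.965 CPM) were below the filter. The only tested Cyp3 gene, Cyp3a13, was read in 1 of 9 FSClow libraries, at 3.94 CPM, whereas the EpCAM libraries had 35.7, 28.04, 36.7, 44.6 and 31.2 CPM. Its fold change of -6.33 ± 0.72 (adjusted p = 1.32e-07) became -10.2 without FSClow replicate 5, the library that held those reads. Cyp3a41a and Cyp3a44 had no count in any EpCAM library and reached at most 3.06 and 5.64 CPM in any eGFP+ library.

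Cyp4 genes are omega-hydroxylases of fatty acids and eicosanoids. Of 10 tested, 5 were lower and 4 higher in FSClow than in EpCAM (all genes 23.1% and 22.0%). Cyp4b1, which activates aromatic and furan compounds in airways, was read at 0 to 2.81 CPM in FSClow libraries, at 16.5, 7.23, 11.8, 28.2 and 29.8 CPM in FSChi and at 61.3, 46.3, 77.1, 83.8 and 91.0 CPM in EpCAM. The 3 groups did not overlap. It fell by 6.57 ± 0.52 on the log2 scale in FSClow against EpCAM (SE, edgeR adjusted p = 4.68e-10) and by 1.92 ± 0.48 in FSChi against EpCAM (adjusted p = 0.00479). Cyp4a12b, a producer of 20-HETE in mice, fell by 8.44 ± 0.91 in FSClow (adjusted p = 1.43e-07), and by 9.45 without FSClow replicate 2. Its FSChi libraries had 31.0, 0, 0.806, 42.0 and 26.2 CPM, and FSChi against EpCAM was not called (adjusted p = 0.0613).

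All 5 Fmo members were lower in FSClow than in EpCAM and higher in FSChi than in FSClow. Of the 5, 4 were lower in FSChi than in EpCAM. The shares of all genes with these calls were 23.1%, 15.5% and 12.2%. Fmo enzymes oxygenate nitrogen and sulfur atoms of drugs and dietary amines. Fmo6 was the most abundant, with 8.61 ± 5.74 CPM in FSClow, 39.7 ± 23.3 CPM in FSChi and 233 ± 99.7 CPM in EpCAM. Its fold change in FSClow against EpCAM was -4.79 ± 0.47 (SE, edgeR adjusted p = 3.25e-08) and in FSChi against EpCAM -2.58 ± 0.53 (adjusted p = 0.0011). Fmo1 and Fmo2 fell by 6.79 and 5.66 on the log2 scale in FSClow against EpCAM. FSChi replicate 4 was their highest FSChi library, and without it the FSChi against EpCAM changes were -3.23 for Fmo1 and -3.90 for Fmo2 in place of -2.17 and -3.16. Without FSClow replicate 6 the Fmo2 change in FSClow against EpCAM was -6.30.

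Among conjugating enzymes, Ugt2a1 (chr5:87459490-87490871, minus strand), the olfactory glucuronosyltransferase that acts on odorants, ran from 1.43 CPM over a median of 6.83 to 10.9 in FSClow. The FSChi libraries had 14.1, 4.82, 16.9, 61.4 and 88.2 CPM, against 169, 149, 313, 337 and 102 CPM in EpCAM. Both eGFP+ groups lay wholly below EpCAM. Its log2 fold changes were -5.02 ± 0.50 in FSClow against EpCAM (SE, edgeR adjusted p = 4.45e-08), -2.51 ± 0.55 in FSChi against EpCAM (adjusted p = 0.00207) and 2.51 ± 0.49 in FSChi against FSClow (adjusted p = 6.5e-04). Without FSChi replicate 5 the change in FSChi against EpCAM was -3.13. Ugt2a1 and Ugt2a2 share exons, so reads of the pair may not be separable.

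The Ugt1 genes, which join alternative exons to a shared end and handle bilirubin and phenols, were close to absent in FSClow. Ugt1a6a had 2 counts in all FSClow libraries together, both in FSClow replicate 6, and 66 in FSChi and 950 in EpCAM. The ratio of EpCAM to FSClow levels was 482 with a counting interval of 133 to 3982 (95%, counting error only). In the single-library files Ugt1a6a had 14 expected counts in FSClow and 1790 in EpCAM, so this ratio holds for the count table only. Ugt1a1 and Ugt1a5 had no count in any eGFP+ library, and 9 and 25 counts in EpCAM. Ugt1a5 was thus at least 8.45-fold lower in FSClow and at least 6.35-fold lower in FSChi, taking 3 counts over the group as the floor.

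Sulfotransferases were lower in FSClow than in EpCAM for 6 of 7 tested members (all genes 23.1%). Sult1c1 (chr17:53961615-53990631), a sulfotransferase of olfactory tissue, had 11.2 CPM in the lowest FSClow library, 39.0 at the median and 104 in the highest. FSChi libraries had 102, 30.5, 39.0, 116 and 26.9 CPM, against 153, 195, 198, 319 and 94.0 CPM in EpCAM, and the groups overlapped. It fell by 1.98 ± 0.44 in FSClow against EpCAM (log2 fold change ± SE, edgeR adjusted p = 8.65e-04). In FSChi against EpCAM it fell by 1.60 ± 0.52 (adjusted p = 0.0294), a call lost without FSChi replicate 2, 3 or 5 or EpCAM replicate 4 (adjusted p = 0.0675 to 0.0793). Sult1e1, the estrogen sulfotransferase, ranged over 0 to 1.02 CPM in FSClow libraries and over 32.1 to 102 CPM in EpCAM libraries (-8.19 ± 0.81, adjusted p = 2.76e-08, and -8.99 without FSClow replicate 2). In FSChi it stood at 46.8, 0, 6.18, 9.15 and 2.83 CPM, and its change in FSChi against EpCAM was -2.36, or -3.80 without FSChi replicate 1. Sult1d1, which sulfates catecholamines in mice, was 4.63 ± 0.68 higher on the log2 scale in FSChi than in FSClow (adjusted p = 5.54e-05), or 5.24 without FSClow replicate 1. Sult4a1, a brain-enriched orphan member, was called lower in FSChi than in EpCAM (-2.18, adjusted p = 0.027), but not without FSChi replicate 1, 3 or 5 or EpCAM replicate 2 (adjusted p = 0.0543 to 0.0556), and was -2.82 without FSChi replicate 4.

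Glutathione transferases differed by class. Gsto1 (chr19:47854973-47864790), of the omega class with thioltransferase activity, ran from 4.83 CPM over a median of 17.5 to 58.7 in FSClow. FSChi libraries had 494, 85.2, 35.2, 333 and 315 CPM, against 2274, 1096, 851, 940.5 and 1881 CPM in EpCAM. Both eGFP+ groups lay below EpCAM without overlap (log2 fold changes -5.88 ± 0.56 for FSClow, SE, edgeR adjusted p = 3.49e-08, and -2.48 ± 0.62 for FSChi, adjusted p = 0.00559). Gstm1, a mu-class enzyme with broad substrates, had 132 ± 32.6 CPM in FSClow, 249.8 ± 88.0 CPM in FSChi and 794 ± 130.1 CPM in EpCAM. It fell by 2.59 ± 0.21 in FSClow against EpCAM (adjusted p = 5.96e-10) and by 1.67 ± 0.25 in FSChi against EpCAM (adjusted p = 2.15e-05). Gsta4, which detoxifies the lipid peroxidation product 4-hydroxynonenal, fell by 4.92 ± 0.44 in FSClow against EpCAM (adjusted p = 7.1e-09). Gstp1, the pi-class member, fell by 1.02 ± 0.21 (adjusted p = 2.44e-04) and stood at 106, 63.5, 66.4, 67.4 and 87.5 CPM in FSChi, against 96.2, 81.8, 47.9, 83.4 and 95.6 CPM in EpCAM (adjusted p = 0.912).

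Levels between genes were compared per length, as TPM computed here from the counts and the deposited gene lengths. In EpCAM the highest were Cyp2f2 (5090 ± 1696 TPM), Cyp2a5 (4002 ± 2045), Gsto1 (3043 ± 1372) and Gstm1 (1591 ± 345), of which Cyp2f2, Cyp2a5 and Gsto1 lay within 1 SD of their neighbour. The authors' deposited TPM put Gsto1 (2258 ± 1020) above Cyp2a5 (1887 ± 981), below Cyp2f2 (3306 ± 1074), so that the order of these genes depends on how TPM was made. In FSClow Gstm1 (254 ± 44.8 TPM) and Cyp2a5 (239 ± 65.2) led, within 1 SD of each other, followed by Gstp1 (129 ± 26.0) and Cyp2g1 (106 ± 25.01). In the deposited TPM Gstm1 (183 ± 21.6) stood above Cyp2a5 (130.1 ± 29.4) by more than 1 SD, and Gsta3 (72.2 ± 20.6) and Gstm5 (67.7 ± 17.0) came before Cyp2g1 (64.7 ± 14.1). Over the named members and the 3 groups, 52 levels differed between these sources of TPM by more than 1 SD and 86 did not.

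The members called higher in eGFP+ cells were 8 in FSClow and 7 in FSChi against EpCAM (all genes 22.0% and 13.5%), 6 of them shared. The FSClow genes were P450 members except for Gstt2. Cyp2j6, of the subfamily of arachidonic acid epoxygenases, had 55.0, 83.6 and 100.3 CPM as lowest, median and highest FSClow values. FSChi libraries had 109, 169, 93.0, 135 and 268 CPM, against 46.1, 37.1, 50.9, 64.5 and 42.2 CPM in EpCAM. FSChi lay wholly above EpCAM and FSClow partly overlapped it. The log2 fold changes were 0.74 ± 0.22 in FSClow against EpCAM (SE, edgeR adjusted p = 0.00942), 1.68 ± 0.25 in FSChi against EpCAM (adjusted p = 2.51e-05) and 0.94 ± 0.21 in FSChi against FSClow (adjusted p = 0.00207).

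Cyp2j13 had 246 counts over the FSClow libraries, 45 over FSChi and 3 over EpCAM, with no count in FSClow replicate 1. It was 5.72 ± 1.06 higher on the log2 scale in FSClow than in EpCAM (SE, edgeR adjusted p = 8.79e-05) and 6.54 higher when EpCAM replicate 1 was left out. Its call in FSChi against EpCAM (3.62 ± 1.12, adjusted p = 0.0194) was lost without FSChi replicate 3 (2.58, adjusted p = 0.126) or EpCAM replicate 4 (adjusted p = 0.0577), and was 4.46 without EpCAM replicate 1. Cyp4f16, Cyp4f37 and Cyp4f13, of the leukotriene and fatty acid hydroxylase family, were 1.63 ± 0.32, 1.89 ± 0.46 and 1.02 ± 0.24 higher in FSClow than in EpCAM (adjusted p = 1.85e-04, 0.00157 and 9.43e-04). In FSChi against EpCAM they were 1.54, 1.69 and 0.94 higher (adjusted p = 0.0022, 0.0148 and 0.0096), the last lost without FSChi replicate 1 (adjusted p = 0.0538). Cyp4f37 was 0.0456 TPM in FSClow, 0.112 TPM in FSChi and listed at 0 in EpCAM in the deposited TPM, and its coding sequence is 95.61% identical to that of Cyp4f16, so its values are uncertain. Cyp2r1, a vitamin D 25-hydroxylase, had 1.15 to 4.44 CPM in FSClow and 0 to 0.603 CPM in EpCAM (2.75 ± 0.68, adjusted p = 0.00173).

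Cyp4v3, whose human counterpart is a fatty acid omega-hydroxylase, was the only tested member called lower in FSChi than in FSClow. FSChi libraries had 17.2, 9.64, 33.6, 26.5 and 26.9 CPM, against a lowest, median and highest value of 24.2, 56.4 and 71.0 CPM in FSClow (-1.16 ± 0.31, SE, edgeR adjusted p = 0.00742). It was 1.04 ± 0.30 higher in FSClow than in EpCAM (adjusted p = 0.00662), where EpCAM libraries held 20.03 to 34.1 CPM. Gstt2, a theta-class transferase, ran from 3.58 CPM over a median of 12.4 to 17.4 in FSClow. FSChi libraries had 8.23, 4.02, 10.2, 11.9 and 12.8 CPM, against 2.16, 1.66, 2.06, 3.27 and 3.16 CPM in EpCAM, with no overlap of either eGFP+ group with EpCAM. The changes were 2.25 ± 0.38 for FSClow (adjusted p = 2.56e-05) and 1.94 ± 0.40 for FSChi (adjusted p = 9.62e-04). Gstt3 was 0.98 ± 0.22 higher in FSChi than in EpCAM (adjusted p = 0.00169) and 0.76 ± 0.19 higher in FSChi than in FSClow (adjusted p = 0.00418).

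Of the 97 members 79 lay in clusters of related genes less than 500 kb apart. In the Cyp2 cluster of chromosome 7 (25802469 to 27158564), which spans Cyp2s1 to Cyp2t4, all 6 tested members were lower in FSClow than in EpCAM. The same held for all 6 tested members of the Ugt2 and Sult1 cluster of chromosome 5 (86889770 to 87591611). Both counts stand beside a share of 78.6% (44 of 56) called lower among all tested members, and nothing particular to the clusters was tested. The first includes Cyp2a4 and Cyp2a5 and the second Ugt2a1 and Ugt2a2, and reads may not be separable within either pair. Other clusters held both directions: the Cyp4f cluster of chromosome 17 held 3 members called higher and 2 called lower among 6 tested, the Cyp2j cluster of chromosome 4 held 2 higher and 1 lower of 3, and the Gstt cluster of chromosome 10 held 1 of each among 3.

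Most, but not all, marker lists of other cells were lower in FSClow than in EpCAM, as most members were. Of all genes tested, 23.1% were called lower and 22.0% higher in that comparison, and 12.2% lower in FSChi against EpCAM. Of 7 sustentacular markers outside the families, 6 were lower and 1, Sox2, was higher in FSClow than in EpCAM, and 4 were lower in FSChi than in EpCAM. Their summed level was 89.8 to 384 CPM in FSClow, 195 to 1594 CPM in FSChi and 2698 to 3812 CPM in EpCAM. Olfactory neuron markers summed to 89.3 to 298, 244 to 3953 and 3387 to 6023 CPM in these groups, and secretory markers to 19.5 to 271, 405 to 11920 and 5509 to 18180 CPM. Every marker of these 3 lists had a count in each group. Within FSChi, replicate 2 was lowest in members (1599 CPM) and in the sustentacular (195) and secretory (405) sums, and replicate 4 was highest in members (7654 CPM) and in the sustentacular sum (1594). The secretory sum was highest in replicate 5 (11920 CPM, against 9786 in replicate 4), and the neuron sum (3953), the basal sum (1801) and the ciliated sum (338) were highest in replicate 1. Of 6 basal markers 4 were lower in FSClow than in EpCAM, and they summed to 122 to 260, 132 to 1801 and 1466 to 4649 CPM in FSClow, FSChi and EpCAM. Both tested markers of stroma and vessels were lower in FSClow than in EpCAM, and that list summed to 1.26 to 17.9, 4.02 to 224 and 253 to 405 CPM. Tuft and brush cell markers, for which the eGFP sort selects, summed to 6091 to 10390 CPM in FSClow, 4832 to 8540 CPM in FSChi and 7.3 to 21.7 CPM in EpCAM. Olfactory gland markers, of which 3 of 4 tested were lower in FSClow than in EpCAM, summed to 360 to 688, 242 to 567 and 211 to 13610 CPM in the same groups. The fourth, Sox9, was higher in FSClow and in FSChi than in EpCAM, and the median of the gland sum was higher in FSClow (566 CPM) and FSChi (367) than in EpCAM (342). The part of these cells in the members' levels was not tested.

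**Figure D4:**
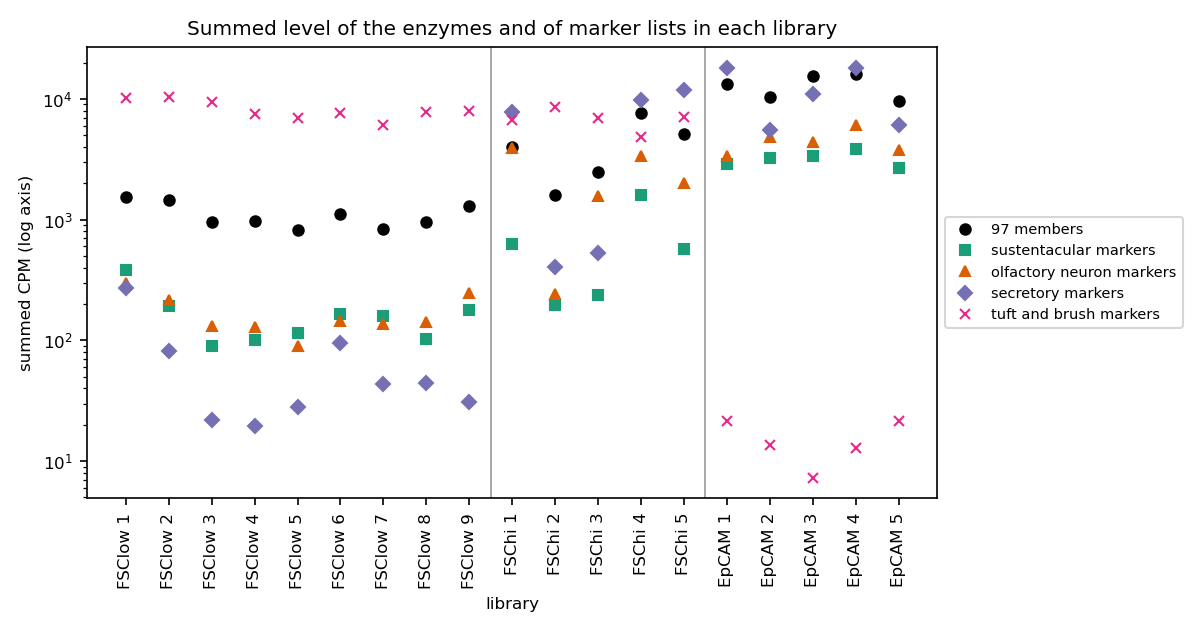
Summed CPM (log axis) of the 97 members and of 4 marker lists in each of the 19 libraries, FSClow then FSChi then EpCAM. The members and the sustentacular, olfactory neuron and secretory markers are low in FSClow, spread widely in FSChi and high in EpCAM, whereas tuft and brush markers are at 4832 CPM or more in every eGFP+ library.

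The fit of libraries whose column matched their own file kept 2 of FSChi, 3 of EpCAM and all of FSClow. There 6 members were higher and 52 lower in FSClow against EpCAM, where 2011 and 3091 of 14193 genes were. In FSChi against EpCAM 2 members were higher and 18 lower (all genes 1048 and 790). In FSChi against FSClow 24 were higher and 2 lower (all genes 1331 and 423). The filter passed another set of genes than the 13340 of the main fit, so the member counts of the fits are not directly comparable.

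The deposited tables also disagreed on near-identical genes. In the count table the ratio of Cyp2a4 to Cyp2a5 was 0.236 to 0.282 in all 19 libraries, whatever the level. In the RSEM files, which assign reads shared by several genes by estimation, Cyp2a4 had 3 expected counts in FSClow, 16 in FSChi and 107 in EpCAM, against 3321, 14109 and 57136 for Cyp2a5. Its mean in EpCAM was 1116 ± 573 TPM from the count table and 3.71 ± 4.28 in the deposited TPM (SD, n = 5). Gstp2 and Gstp1, whose coding sequences are 98.1% identical, had count ratios of 0.516, 0.508 and 0.517 in FSClow, FSChi and EpCAM in the count table, against 0.0105, 0.0214 and 0.0321 in the RSEM files. For Cyp4a12a and Cyp4a12b (98.49% identical) the EpCAM ratios were 0.547 and 0.0438, and for Ugt1a6b and Ugt1a6a (98.37%) they were 0.528 and 0.12. Levels and changes of Cyp2a4, Gstp2, Cyp4a12a and Ugt1a6b are therefore uncertain, as is the FSClow level of Ugt1a6a. The disagreement was not confined to these pairs. In EpCAM Gstm3 had 62.7 TPM from the count table and 0.436 in the deposited TPM. Gstp-ps had 112.7 and 2.90, and Ugt2a3 had 9.68 and 0. The nearest member by coding sequence was 89.45% identical for Gstm3 and 73.72% for Ugt2a3. Levels of these members are uncertain too. A total of 18 members have a partner of 95% identity or more. Gsto2, an omega-class relative of Gsto1, was lower in FSClow in the count table (-2.85, edgeR adjusted p = 1.84e-05) and at -0.94 in the RSEM expected counts (adjusted p = 0.25).

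**Figure D5:**
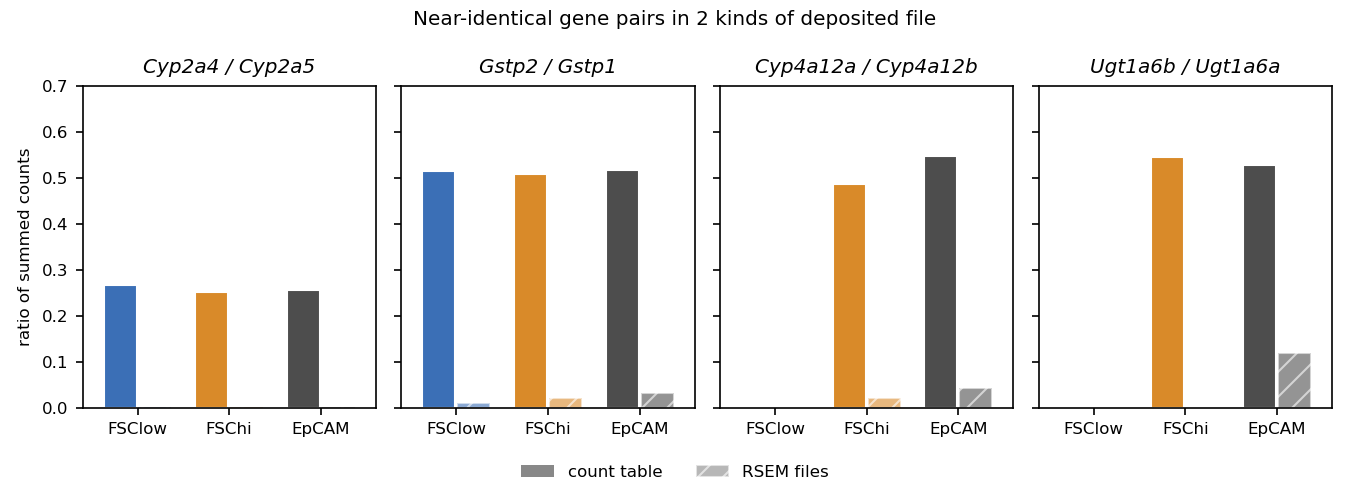
Ratio of summed counts of the named gene to its near-identical partner in FSClow, FSChi and EpCAM, from the count table (plain bars) and from the RSEM files (hatched bars), with no bar where the pair has under 20 counts. The hatched Cyp2a4 bars, at 0.000903 to 0.00187, are too low to see.

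Genes that serve these enzymes went in both directions. Por, the reductase that feeds electrons to microsomal P450 enzymes, had 109.5 ± 35.2 CPM in FSClow (SD, n = 9), 195 ± 102 CPM in FSChi (SD, n = 5) and 544 ± 89.1 CPM in EpCAM (SD, n = 5). It fell by 2.31 ± 0.25 in FSClow against EpCAM (SE, edgeR adjusted p = 3.84e-08). Alas1, which starts heme synthesis, fell by 1.91 ± 0.21 (adjusted p = 8.37e-08), and Cyb5r3, the cytochrome b5 reductase, was 1.54 ± 0.19 higher (adjusted p = 4.17e-07). Of 17 tested genes of electron and cofactor supply, 5 were lower and 3 higher in FSClow, with a median of -0.20. Of all genes tested, 23.1% were called lower and 22.0% higher in this comparison.

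Of 29 tested other oxidizing and hydrolysing enzymes, 20 were lower and 2 higher in FSClow than in EpCAM (all genes 23.1% and 22.0%). Their median was -3.49. Cbr2, a carbonyl reductase that also served as a sustentacular marker, had 43.4 ± 26.9 CPM in FSClow and 2157 ± 323 CPM in EpCAM (-5.64 ± 0.43, SE, edgeR adjusted p = 4.16e-10), and Ces2g, a carboxylesterase, fell by 6.70. Aox4, an aldehyde oxidase, went the other way, with 51.0 ± 20.4 CPM in FSClow and 1.71 ± 0.595 CPM in EpCAM (4.90 ± 0.41, adjusted p = 8.34e-10). Of 8 tested conjugating enzymes outside the families, 4 were lower and 3 higher, beside the same shares of all genes. Hpgds, the sigma-class transferase that makes prostaglandin D2, had 108 ± 10.3 CPM in FSClow and 15.8 ± 9.14 CPM in EpCAM (2.78 ± 0.27, adjusted p = 1.11e-08). As3mt, an arsenic methyltransferase, was 1.36 higher (adjusted p = 2.31e-05) and Mgst2, a microsomal glutathione transferase, fell by 4.90 (adjusted p = 2.3e-06).

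Of 11 tested xenobiotic sensors and regulators, 5 were lower and 1 higher in FSClow than in EpCAM (all genes 23.1% and 22.0%). Nfe2l2, the activator of antioxidant response genes, fell by 1.02 ± 0.16 (SE, edgeR adjusted p = 9.85e-06), Ahr, the aryl hydrocarbon receptor, by 1.71 ± 0.44 (adjusted p = 0.00261) and Ppara, a fatty acid receptor, by 2.80 (adjusted p = 4.33e-04). Rxrg, a retinoid X receptor, averaged 13.6 ± 5.0 CPM in FSClow and had no count in EpCAM. Nr1i3, the constitutive androstane receptor, was below the filter, with 0.0973 CPM in FSClow libraries and 0.401 CPM in EpCAM libraries on average. Of 9 tested transporters, 6 were lower and 2 higher in FSClow, beside the same shares of all genes. Slc47a1, an exporter of organic cations, had no count in FSClow and 31.6 ± 12.6 CPM in EpCAM, Abcc1, an exporter of glutathione conjugates, fell by 2.38 (adjusted p = 7.69e-07), and Slco3a1, an organic anion transporter, was 2.0 higher (adjusted p = 4.51e-06).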

How the data were processed

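RNA of 19 sorted nasal epithelial libraries was analysed. Per the submitters' processing notes, the tools were featureCounts, DESeq2, RSEM 1.2.21, STAR 2.4.2a and Picard 1.1073 with build mm10, and no roles are stated. The authors deposited a table of raw read counts per gene, a normalized table treated here as a signal (multiplied by a size factor per library, 100% of its values came out whole within 0.01), and files per library with RSEM expected counts and, per the file headers, TPM. Strand is not stated.

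Counts (totals 1348428 to 7477695) were filtered with filterByExpr by group, scaled by TMM and fitted with a robust quasi-likelihood model of group over all libraries (edgeR 4.0.16, R 4.3.3). P-values were Benjamini-Hochberg adjusted over 13340 genes. SE derive from the F statistic. Expected counts were rounded. TPM was also computed from counts and gene lengths. limma 3.58.1 and DESeq2 1.42.0 served alternatives, and the fits were tested on simulated data. Intervals (95%) and floors (3 counts) cover counting error only.

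The members, lists and naming rule were chosen with earlier results of these data known. Named members are the 4 markers, the 3 most abundant of each family and those called with the smallest p in set directions (46 in all). The text leaves some of them to the heat map. Other pathway genes named are up to 3 of each list with the smallest p, plus Por, Ahr, Nfe2l2 and Nr1i3.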

Additional observations from a re-analysis of the deposited data

Results flagged for a closer look

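Of 116 member levels tested within a group, 5 held a library set apart from the rest of its group, where chance flags about 5% of groups. EpCAM replicate 3 gave 3 of them. It was highest for Cyp4f37 at 2.808 CPM (others 1.178 to 1.558), lowest for Gstp1 at 47.91 CPM (others 81.75 to 96.21) and lowest for Gstp2 at 24.33 CPM (others 42.23 to 50.66). Gstp1 and Gstp2 are near-identical and share reads, so these are not independent, and the same library had the highest olfactory gland marker sum (13610 CPM). Gstt3 was lowest in FSClow replicate 7 at 22.94 CPM (others 38.11 to 53.54). Sult4a1 had 0.0 CPM in FSChi replicate 2 (others 17.87 to 57.3).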

How the results depend on the processing

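Across all alternatives, 3917 fold changes of the named members kept their call or lack of one, 232 lost the call and 51 gained one. Another 25 turned round where either fit had a call, and are named reversed below. The 3917 include values that turned round with no call in either fit. With 1 library left out at a time, the counts of members higher and lower ranged over 7 to 9 and 43 to 51 in FSClow against EpCAM, 6 to 8 and 22 to 34 in FSChi against EpCAM, and 34 to 41 and 1 to 2 in FSChi against FSClow. In FSClow against EpCAM, 3 members were higher under log2(TPM + 1), with or without a filter, and 2 under log2(TPM + 0.1). Without the near-empty file of FSChi 3, 8 were higher under log2(TPM + 1). With no filter on low counts 67 were lower, and likewise with the authors' normalized values. Both of these settings take in members below the filter of the main fit. Of all genes, 5152 of 24209 and 5444 of 26221 were called lower there. In FSChi against EpCAM, 11 were higher with no filter, 0 under each TPM setting, 3 under log2(TPM + 1) without the near-empty file (chosen after seeing the data) and 2 with libraries matching their own file, and 45 were lower with the authors' normalized values. In FSChi against FSClow, 7, 4 and 4 were higher under log2(TPM + 1), log2(TPM + 0.1) and the unfiltered setting, and 20 without the near-empty file. Lower there were 3, 0 and 0 under these TPM settings, 2 without the near-empty file, 0 with the authors' values, 2 with matching libraries and 2 with DESeq2. The near-empty FSChi 3 file enters the TPM settings, which moved the median of all genes in FSChi against EpCAM to -0.816 (pseudocount 1) and -1.562 (0.1). Under log2(TPM + 1) without that file, 0 named members were reversed in any comparison. With it, reversed in FSChi against EpCAM were Cyp4f13 (-0.372, -1.003 and -0.372 under the 3 TPM settings), Gstt3 (-0.479, -1.124 and -0.479) and Cyp4f16 (-0.256, pseudocount 0.1). Reversed with it in FSChi against FSClow were Cyp2g1 (-0.533, -1.187 and -0.533), Gstm1 (-0.864, -1.524 and -0.864), Gstp1 (-0.831, -1.489 and -0.831), Gstt3 (-0.735, -1.387 and -0.735), Ugt2a1 (-0.039, -0.662 and -0.039), Por (-0.889, -1.546 and -0.889) and Gstm2 (-0.176, pseudocount 0.1). The other 2 TPM settings were not run without the file. With matching libraries, Cyp2j13 (-1.436, FSChi against EpCAM) and Ugt2a3 (-0.569, FSChi against FSClow) were reversed, and the cause was not tested.

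Deviations of same-numbered libraries correlated at -0.192 to 0.404. Libraries of different numbers were not compared, so this does not decide whether the numbers pair the libraries. With the number as a replicate block, 8 members were higher and 42 lower in FSClow against EpCAM, 6 and 27 in FSChi against EpCAM, and 27 and 1 in FSChi against FSClow, where Cyp2a5 was at 1.90 (edgeR adjusted p = 0.211). Shallow libraries limit what can be said of the 41 untested members.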
